A study of Mus musculus with 6 samples.

Results

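Across the uterine genome, 12151 regions carried an estrogen receptor alpha (ERα) peak in each of 4 ligand-treated libraries and in neither vehicle library. They were chosen by the presence and absence of peaks, after the peaks of all 6 deposited lists had been merged wherever they overlapped by 1 bp or more. The merge gave 65146 regions, so that 18.7% of all merged regions met the rule, and 19.1% of the 63548 regions that held a ligand peak (exact 95% binomial interval 18.8 to 19.4). These ligand-core sites without a vehicle peak are called core members below. That they were bound with every ligand and not called with vehicle is the rule itself and not a finding. The lists hold positions only. What could be described is where the members lie, how closely the libraries placed their peaks within them, and what surrounds them.

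ERα ChIP-seq was done on whole uteri of ovariectomized C57BL/6J females aged 12 weeks, which were either wild type or carried an ERα mutated in activation function 2 (AF-2; Af2KI in the sample titles). Wild-type and mutant animals each received ICI (fulvestrant, ICI182780) (2 mg/kg), tamoxifen (2 mg/kg), or the solvent of both compounds, DMSO, in a volume of 50 µl. Injections were intraperitoneal and the tissue was taken after 1 h. Each of the 6 groups was 1 library from 6 pooled uteri, and the wild-type animals were littermates of the mutants. The titles of all 6 samples also contain the code E1h, which no label explains. The labels do not give the residues changed in the mutant. Whole uterus mixes epithelium, stroma, muscle and vessels, and a site bound in few cells cannot be told apart from one bound weakly in many.

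ERα is a nuclear receptor that binds DNA as a dimer, classically at estrogen response elements. Its ligand-binding domain carries AF-2, a groove that takes up coactivators when an agonist sets the last helix of the domain in its active place. ICI is a steroid with a long side chain and tamoxifen is a nonsteroidal triphenylethylene, and both fill the ligand pocket and displace that helix. Tamoxifen is known as a partial agonist in the rodent uterus, and ICI as a pure antagonist that also destabilizes the receptor. Receptors bound to either compound can still attach to chromatin, which is what these peak lists record.

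Every comparison is between single libraries, so there is no spread between replicates and no test of a difference between conditions. Intervals on shares are exact 95% binomial intervals and cover counting error only. Differences between classes of regions were not tested either, and the intervals are set side by side as a description. Read depth is unknown, and all deposited peaks were 200 bp wide with no height or score. A site missing from a list may have had signal below the threshold used, which holds above all for the vehicle lists of 3712 (wild type) and 5027 (mutant) peaks. Positions are those of the mm9 build, numbered from 1, and genes near the sites were not analysed here.

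The core members made up most of the sites that all 4 ligand libraries had in common. In all, 15144 regions, or 23.2% of the merged regions, held a peak of all 4 ligand lists. A vehicle peak removed 2993 of them, or 19.8% (19.1 to 20.4), and left the 12151. Of the 2993, 1691 held a wild-type vehicle peak only, 843 a mutant vehicle peak only and 459 both. The wild-type vehicle list thus removed more core regions than the longer mutant vehicle list did.

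Among regions bound in fewer ligand libraries the vehicle lists took the opposite order. Of the regions of exactly 3 ligand lists, 10.1% held a vehicle peak (9.52 to 10.6), with 266 held by the wild-type list only and 575 by the mutant list only. Regions of exactly 2 ligand lists held one in 7.41% of cases (6.99 to 7.85), with 182 wild-type only and 746 mutant only. At 3.70% (3.46 to 3.95), regions of a single ligand list held a vehicle peak least often among those with a ligand peak, with 173 wild-type only and 569 mutant only. The share of regions without a vehicle peak therefore fell as the number of ligand lists rose, while the core members still outnumbered the vehicle-held core. The difference between the vehicle lists was not tested.

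The wild-type ICI library was the one that most limited membership. Without a vehicle peak, 6890 regions lacked a wild-type ICI peak alone, against 1473 that lacked mutant tamoxifen alone, 1441 that lacked wild-type tamoxifen alone and 365 that lacked mutant ICI alone. If a wild-type ICI peak was not required, 19041 regions met the rest of the rule, 1.57 times the 12151. The wild-type ICI list was also the shortest ligand list, and the part of its length in this was not tested.

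Nearly every member was 1 peak per ligand library. The wild-type ICI and mutant tamoxifen lists each had 12151 peaks in the 12151 members, the wild-type tamoxifen list 12152 and the mutant ICI list 12153. Since the lists differ in length, these equal numbers were unequal shares. They were 45.9% of the 26482 wild-type ICI peaks (45.3 to 46.5), 32.6% of the 37327 wild-type tamoxifen peaks (32.1 to 33.0), 33.3% of the 36538 mutant tamoxifen peaks (32.8 to 33.7) and 26.5% of the 45837 mutant ICI peaks (26.1 to 26.9).

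Within a core member the peak midpoints of the 4 ligand lists lay close together, which the rule partly requires. Members are made of overlapping peaks, and peaks too far apart to overlap or be chained fell into separate regions. The distance from the lowest to the highest of the 4 peak midpoints, called the spread here, had a median of 29 bp (exact 95% interval of the median 28 to 29), with quartiles of 18 and 45 bp, in peaks 200 bp wide. It was at most 20 bp in 30.9% of members (30.1 to 31.8), at most 50 bp in 80.1% (79.4 to 80.8) and over 100 bp in 4.45% (4.09 to 4.83). A merge allows peaks to chain together over longer distances, and 94 members were wider than 400 bp, up to 567 bp. The median width of a member was 229 bp.

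Core regions that did hold a vehicle peak had a median spread of 25 bp (24 to 26), with both tails fuller. Of these, 39.8% had a spread of at most 20 bp (38.0 to 41.6), more than among the members. Spreads over 100 bp were also more frequent, at 6.58% (5.72 to 7.53). The intervals of the members and of the vehicle-held core did not overlap at either end of the scale. The spread was measured between ligand peaks only, but vehicle peaks took part in the merge. They can join ligand peaks that do not themselves overlap, and their part in the wider spreads was not tested.

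Pairs of libraries fell into 2 groups by how far apart their midpoints lay: the 3 pairs with wild-type ICI were farther apart than the 3 without it, whether or not the libraries shared a genotype or a compound. The median distance was 11 bp for mutant ICI with mutant tamoxifen, which share a genotype. It was also 11 bp for wild-type with mutant tamoxifen, which share a compound, and for wild-type tamoxifen with mutant ICI, which share neither. With wild-type ICI it was 16 bp to wild-type tamoxifen, 17 bp to mutant ICI and 16 bp to mutant tamoxifen. The midpoints of the ICI and tamoxifen libraries, at the same dose and time, thus had a median unsigned distance of 16 bp within the wild type and 11 bp within the mutant. The larger value was not particular to a change of compound, as wild-type ICI lay 17 bp from mutant ICI.

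Signed along the chromosome, the midpoints differed little. The median of the wild-type ICI midpoint minus that of each other list was -1 bp in all 3 pairs, and the median difference was 0 bp in the 3 pairs without wild-type ICI. The upper quartile of the unsigned distance was 30 to 31 bp for the pairs with wild-type ICI and 21 bp for the other pairs.

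**Figure D1:**
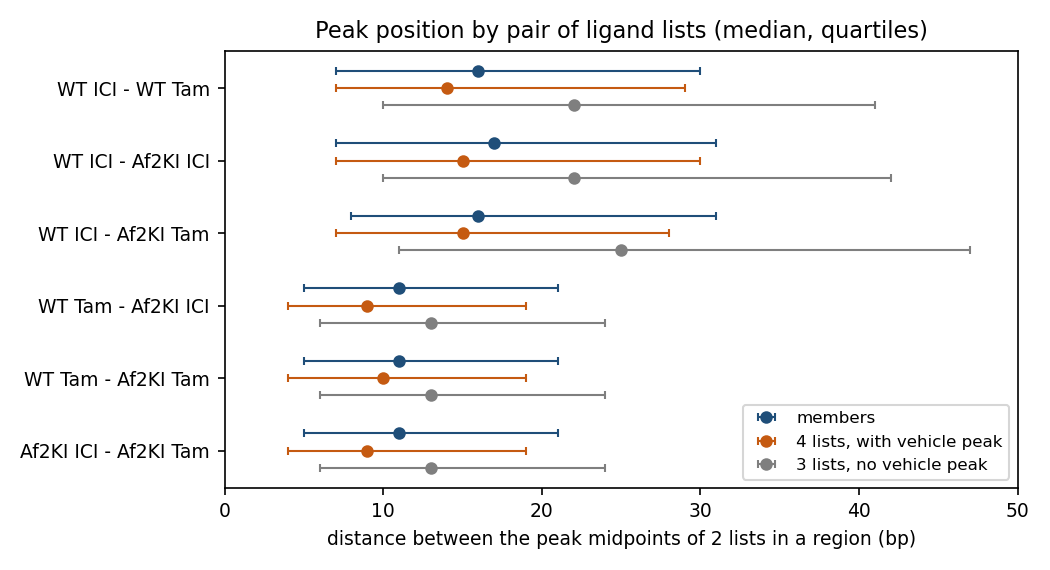
Distance between the peak midpoints of 2 ligand lists in the same region, in bp, for the 6 pairs of lists. Points are medians and bars run from the lower to the upper quartile, for core members (blue), core regions with a vehicle peak (orange) and regions of exactly 3 ligand lists without a vehicle peak (grey). The 3 pairs with wild-type ICI lie farther right in all 3 sets, at medians of 16 to 17 bp against 11 bp in the members. In the grey set each pair is measured only in the regions that hold both of its lists, so the pairs there come from different regions.

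The same order of pairs appeared in regions outside the rule. In the vehicle-held core the medians were 9 to 10 bp without wild-type ICI and 14 to 15 bp with it. In regions of exactly 3 ligand lists and no vehicle peak they were 13 bp without it and 22 to 25 bp with it. There a pair could be measured only where both of its lists had a peak, so the pairs were measured in different sets of regions. Pairs with wild-type ICI had 1806 to 2914 regions and the other pairs 7255 to 8363. Differences between those sets of regions were not separated from differences between the pairs. Midpoints lay closer together the more ligand lists a region was in: wild-type tamoxifen and mutant ICI were 14 bp apart in regions held by those lists alone, 13 bp in regions of 3 lists and 11 bp in the members. These classes come from the same libraries, and depth and peak strength, which are unknown, were not tested as part of this.

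Taken member by member, the wild-type ICI midpoint was the one farthest from the median of the 4 in 42.2% of the 11624 members with a single farthest list (41.3 to 43.1). The other lists were farthest in 19.5% (mutant ICI), 19.3% (wild-type tamoxifen) and 18.9% (mutant tamoxifen). In the 541 members with a spread over 100 bp, wild-type ICI was farthest in 49.4% of the 540 with a single farthest list (45.2 to 53.8). The vehicle-held core had the same pattern, with wild-type ICI farthest in 45.1% of 2847 such regions (43.3 to 46.95). At spreads over 100 bp it was farthest there in 54.2% of 192 (46.8 to 61.4). The closest pair of midpoints was mutant ICI with mutant tamoxifen in 21.5% of the 11137 members with a single closest pair, and wild-type with mutant tamoxifen in 21.4%. Wild-type tamoxifen with mutant ICI followed at 19.9%, and each pair with wild-type ICI reached 12.0% to 13.0%.

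The order of the midpoints along a member followed genotype slightly more often than compound. In 35.8% of 11492 members (34.96 to 36.7) the lower pair of midpoints belonged to 1 genotype and the upper pair to the other. In 32.1% (31.2 to 32.9) they were split by compound, and in 32.1% (31.3 to 33.0) by neither. A further 659 members had their middle midpoints tied. These classes are the only ways to divide the midpoints into pairs, so an even division would give each the same share. In the vehicle-held core the shares were 35.45% by genotype (33.7 to 37.25), 30.3% by compound (28.6 to 32.05) and 34.2% by neither (32.5 to 36.0). The excess of genotype over compound was thus small and not particular to the members. Over the split by neither, the interval for genotype lay higher in the members but overlapped in the vehicle-held core.

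Single members show the range. The tightest had a spread of 1 bp, which 10 members shared. By position, the first 5 of these were chr1:154837748-154837948, chr3:145382744-145382944, chr5:136212376-136212576, chr6:97518095-97518295 and chr7:63409179-63409379. Each was 201 bp wide. Their surroundings differed: the nearest merged region was 362 bp away at the chromosome 6 site and 40563 bp away at the chromosome 7 site. The nearest vehicle peak lay 44745 bp from the chromosome 1 site and 1436979 bp from the chromosome 7 site.

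At the other end, chr4:150545869-150546435 had the largest spread, at 341 bp. Its midpoints lay 441 bp (wild-type ICI) and 438 bp (wild-type tamoxifen) from the region's start, against 304 bp for mutant tamoxifen and 100 bp for mutant ICI. The wild-type midpoints thus lay close together there, and the mutant midpoints lay apart from them and from each other. At chr8:49326301-49326816, with a spread of 316 bp, wild-type ICI stood at 416 bp and the other lists at 100 to 220 bp. At chr9:45176580-45177091, with a spread of 312 bp, wild-type ICI stood at 100 bp and the others at 236 to 412 bp.

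The remaining pair of widest members differed from each other in order. At chr15:77174904-77175414 the spread was 311 bp, with mutant tamoxifen at 100 bp, wild-type ICI at 189 bp, wild-type tamoxifen at 384 bp and mutant ICI at 411 bp. That order was split by neither genotype nor compound. At chr18:52660563-52661083 the spread was 307 bp, with mutant ICI at 100 bp, mutant tamoxifen at 118 bp, wild-type ICI at 236 bp and wild-type tamoxifen at 407 bp. Both mutant midpoints thus lay below both wild-type midpoints, as at the chromosome 4 site. The nearest other merged region lay between 186 and 2578 bp from each of these 5 widest members.

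Core members lay in neighbourhoods with other ERα sites. Another merged region of any kind lay within 1 kb of 27.9% of them (27.1 to 28.7), within 10 kb of 74.2% (73.4 to 74.97) and within 50 kb of 96.2% (95.8 to 96.5). The median gap was 3661 bp. Within 10 kb the share was 72.2% (70.5 to 73.8) for the vehicle-held core, 71.9% (71.0 to 72.8) for regions of exactly 3 ligand lists without a vehicle peak, 68.5% (67.7 to 69.3) for those of 2 and 64.1% (63.5 to 64.8) for those of 1. The more ligand lists a region without a vehicle peak was in, the more often it had a neighbour at that distance.

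At very short range the members and the vehicle-held core had nearly equal shares. A second merged region within 200 bp was found for 4.63% of members (4.27 to 5.02) and 4.81% of the vehicle-held core (4.07 to 5.64), against 6.62% (6.14 to 7.12), 6.49% (6.08 to 6.92) and 7.61% (7.26 to 7.97) of regions of exactly 3, 2 and 1 ligand lists without a vehicle peak. Merging bears on this directly, since nearby peaks of different lists can join into 1 region.

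The neighbour was another core member more often than members occur among all regions. The nearest region to a member was itself a member in 21.9% of cases (21.2 to 22.6), whereas members were 18.7% of all regions. For regions of exactly 3, 2 and 1 ligand lists without a vehicle peak, the nearest region was a member in 20.7% (19.96 to 21.6), 18.3% (17.7 to 18.98) and 17.2% (16.7 to 17.8). For the vehicle-held core it was 17.9% (16.6 to 19.3). The nearest region to a member was a single-list region in 31.0% of cases (30.2 to 31.9), against 34.6% among all regions. Members close to each other are counted from both sides, so these counts are not independent.

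Measured between core members alone, gaps were longer than to regions of any kind, of which the members are a part. The median gap to the nearest other member was 25103 bp, against 3661 bp to any region. How these gaps compare with a random placement of the members was not tested. Another member lay within 1 kb of 7.20% of members (6.75 to 7.68), within 10 kb of 29.7% (28.9 to 30.5) and within 50 kb of 66.5% (65.6 to 67.3). Only 24 members had another member within 200 bp.

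**Figure D2:**
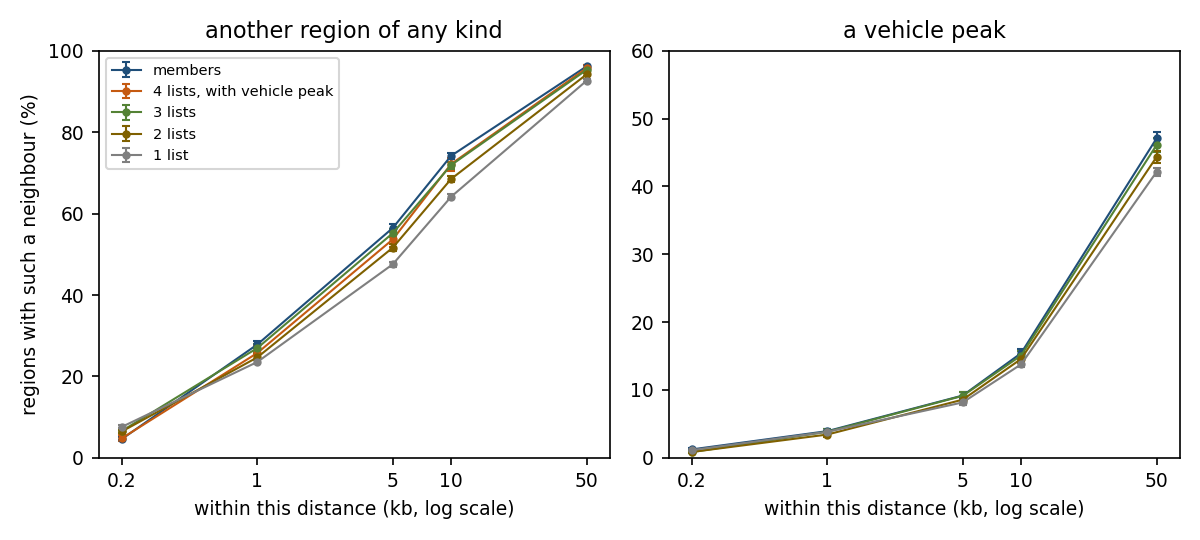
Share of regions (y axes, in %, to different maxima) that have a neighbour within the distance on the log-scaled x axes (kb): another merged region of any kind (left) or a vehicle peak of either genotype (right). Colours are core members, core regions with a vehicle peak (left only) and regions of exactly 3, 2 or 1 ligand lists without a vehicle peak, with exact 95% binomial intervals. Within 10 kb, 74.2% of members had another region and 15.4% a vehicle peak.

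Some core members lay close to a site called under vehicle. A vehicle peak of either genotype lay within 1 kb of 3.93% of the members (3.595 to 4.295), within 10 kb of 15.4% (14.8 to 16.1) and within 50 kb of 47.1% (46.2 to 48.0). The median gap was 55592 bp. Regions of exactly 3, 2 and 1 ligand lists without a vehicle peak had one within 10 kb in 15.1% (14.4 to 15.8), 14.6% (14.0 to 15.2) and 13.8% (13.3 to 14.3). The members' interval overlapped those of the regions of 3 and 2 lists and not that of the single-list regions.

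By genotype, a wild-type vehicle peak lay within 10 kb of 7.60% of members (7.13 to 8.08) and a mutant vehicle peak within 10 kb of 10.5% (9.91 to 11.01). The mutant vehicle list was longer, and the part of its length in this was not tested.

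At the edge of the rule, 151 members, or 1.24% (1.05 to 1.46), had a vehicle peak 200 bp away or less. Regions of exactly 3, 2 and 1 ligand lists without a vehicle peak had one in 0.846% (0.677 to 1.04), 0.867% (0.718 to 1.04) and 1.13% (0.997 to 1.28). The smallest gap among the members was 0 bp, where peaks abutted without sharing a base. For each vehicle-held core region, just outside the rule, the largest overlap of any vehicle peak with any of its ligand peaks was taken. It was at most 100 of 200 bp in 131 of the 2993 regions and larger in the other 2862, with a median of 194 bp. As the best over all 4 ligand lists and over the vehicle list or lists present, this value is by construction at or above the overlap of any single vehicle and ligand peak in the region.

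In windows of 100 kb laid end to end, most windows with a core member held only 1, and some held many. Of 16125 windows with any merged region, 7161 held a member, 44.4%, and 4313 of these held exactly 1. Windows with 5 or more members numbered 230 and held 1314 members, or 10.8%. The 3 windows with the most members held 10 each, and lay on chromosomes 5, 10 and 18.

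The window chr10:76100001-76200000 consisted mostly of core members: 10 of its 15 merged regions were members, and no vehicle peak of either genotype fell in it. The ligand lists had 13 peaks there with wild-type ICI, 13 with wild-type tamoxifen, 11 with mutant ICI and 12 with mutant tamoxifen. The spread of its members ran from 10 bp at chr10:76194428-76194637 to 215 bp at chr10:76106008-76106422, with a median of 16.5 bp. Its closest pair of members, chr10:76157601-76157832 and chr10:76158379-76158643, lay 546 bp apart. The nearest vehicle peak to any of the 10 was 174260 bp away, from the member at 76106008.

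The window chr5:125600001-125700000 held 10 members among 23 merged regions. A further 4 of its regions were in every ligand list except wild-type ICI, and the ligand lists had 11 (wild-type ICI), 16 (wild-type tamoxifen), 18 (mutant ICI) and 18 (mutant tamoxifen) peaks. Each vehicle list had 1 peak in the window, of which the wild-type one lay 118 bp from the member chr5:125696591-125696813. The spread of the 10 members ran from 17 to 133 bp, with a median of 26.5 bp.

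Vehicle binding was closest to the members in the window chr18:36000001-36100000. It held 10 members among 21 merged regions, 2 of which were vehicle-held core regions. The wild-type vehicle list had 1 peak there and the mutant vehicle list 4, and the nearest lay 43 bp from the member chr18:36007899-36008114. The members' spread ran from 6 to 78 bp with a median of 25 bp. The 3 windows thus shared a count of core members and differed in what lay between them.

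**Figure D3:**
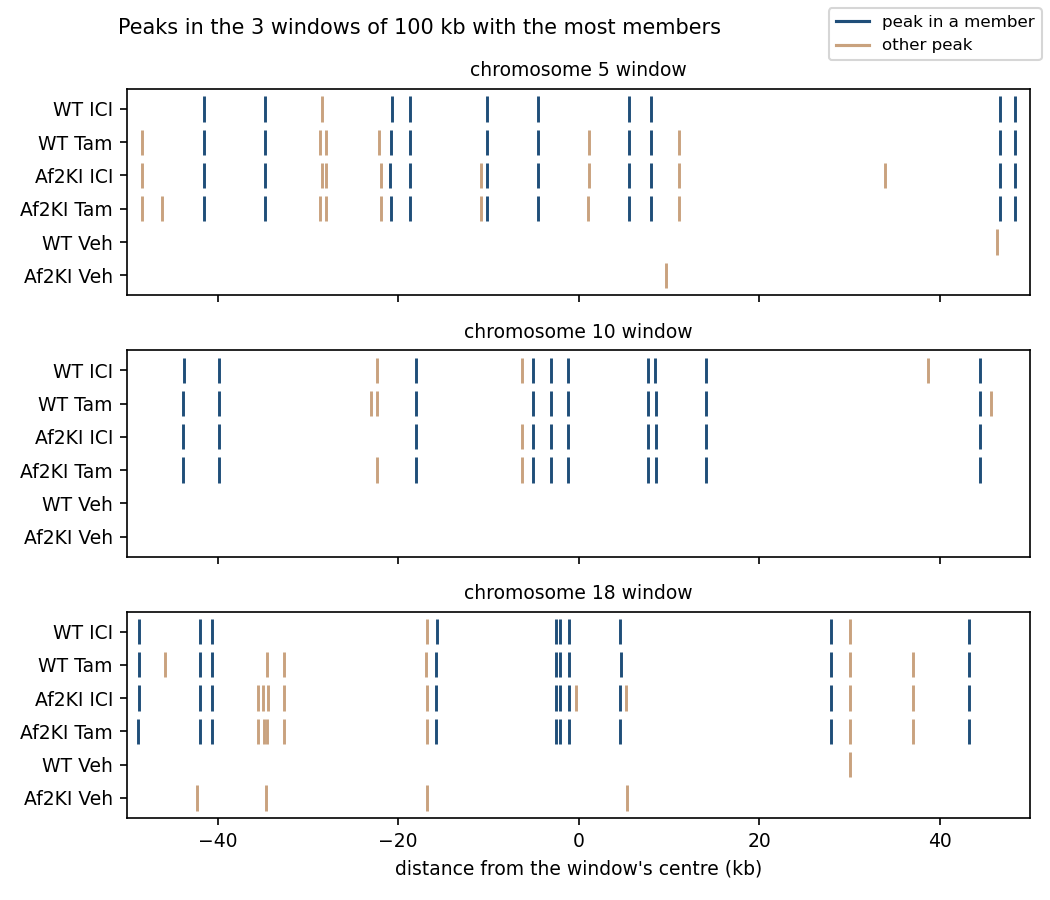
Peak midpoints of the 6 lists (rows) in the 3 windows of 100 kb with the most core members, against the distance from the window's centre in kb. Blue marks are peaks in members, which stand in columns across the 4 ligand lists, and tan marks are other peaks. The vehicle rows hold 0 marks in the chromosome 10 window, 1 each in the chromosome 5 window, and 1 (wild type) and 4 (mutant) in the chromosome 18 window.

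By chromosome, core members were densest on chromosome 11, at 7.25 per Mb, and sparsest on the X chromosome, at 1.33 per Mb, against 4.83 per Mb over the autosomes. Lengths were taken to the last peak of any list. The share of a chromosome's merged regions that were members varied much less than the density. It was 20.8% on chromosome 11 (19.6 to 22.0), 17.0% on chromosome 3 (15.7 to 18.3) and 16.0% on the X chromosome (14.1 to 18.02), beside 18.7% of all regions. Of 20 chromosomes, the interval lay above the overall share for 1 (chromosome 11), below it for 2 (3 and X) and held it for the other 17. The 20 intervals were not adjusted for their number.

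The X chromosome held 222 of the members, 1.83% (1.60 to 2.08), and 2.13% of all merged regions (2.02 to 2.25). It held 2.31% (2.12 to 2.52) of the regions of exactly 1 ligand list without a vehicle peak, 1.93% (1.70 to 2.17) of those of 2 lists, 2.02% (1.75 to 2.31) of those of 3 lists and 2.21% (1.71 to 2.80) of the vehicle-held core. The members' interval lay below that of the single-list regions and overlapped the others, that of all regions included. Chromosome 11 held 7.26% of the members (6.80 to 7.73), 6.52% of all merged regions (6.33 to 6.71) and 5.81% of the vehicle-held core (5.002 to 6.71). Among regions without a vehicle peak it held 6.70% of those of exactly 3 ligand lists (6.22 to 7.2), 6.22% of those of 2 (5.82 to 6.64) and 6.20% of those of 1 (5.88 to 6.53). The members' interval overlapped that of the regions of 3 lists and lay above the others. Sequences not placed on a chromosome held 7 members.

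**Figure D4:**
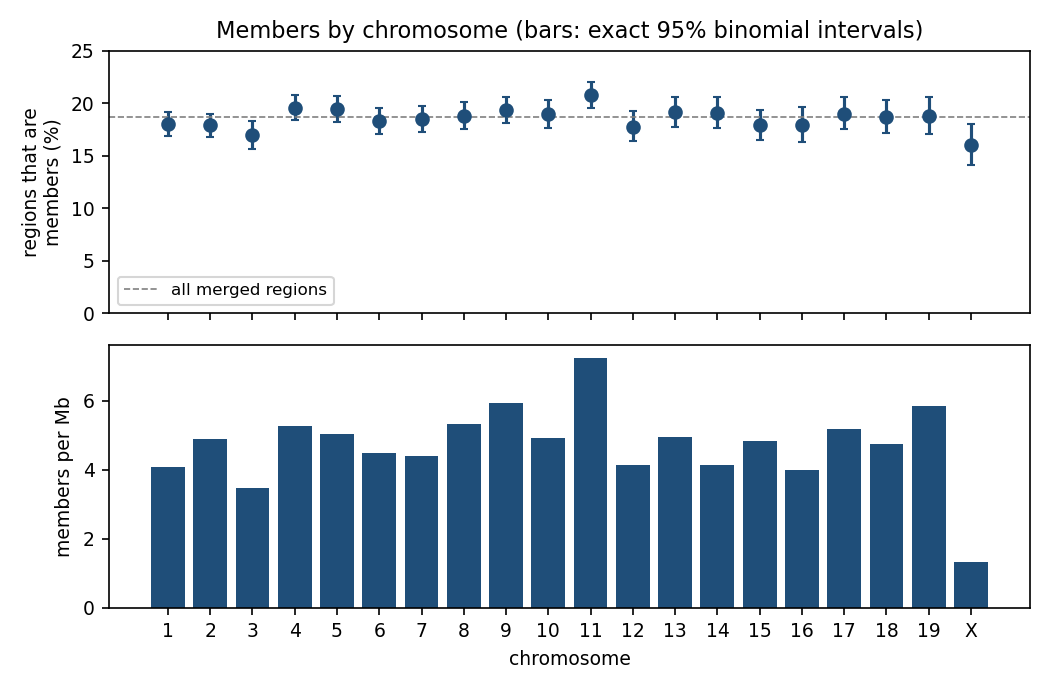
Top: share of each chromosome's merged regions that were core members, in %, with exact 95% binomial intervals, and the share over all merged regions (dashed line, 18.7%). Bottom: core members per Mb. The share lies between 16.0% and 20.8% on all 20 chromosomes, while the density falls to 1.33 per Mb on the X chromosome.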

How the data were processed

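The authors deposited 1 list of peak positions per library (chromosome, start, end and a name made from them), without counts, heights or scores. The submitters' processing notes name the build mm9 and the tools HOMER 4.10.3, Bowtie2 2.1.0, bedtools 2.24.0, Picard and SAMtools. The role of each tool, the peak threshold and any use of input were not given in these sources. They set how many peaks a list holds.

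Merging and counting used Python 3.11.15 with pandas 2.3.3, numpy 2.4.6 and, for intervals, scipy 1.17.1. bedtools 2.31.1 gave the same numbers of regions and members (difference 0), and the code was tested on simulated lists of known classes. The simulated sites lay too far apart to merge and the peaks of a site always overlapped, so chained peaks and touching sites were not covered. Where a list had more than 1 peak in a region, the peak nearest the region's middle gave the midpoint. Gaps run from edge to edge. Windows hold regions by their midpoint.

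Groups came from the sample titles. The members, and the measures described, were chosen with earlier results of these data known. Named members are the 5 of smallest and the 5 of largest spread, ties by position, and the 3 windows of 100 kb with most members. Planned results on gene starts, gene lists and estrogen response elements were left out, since a genome and annotation of mm9 were not used here and tables of another build were not converted. Alternatives varied the overlap, the chromosomes, the lists required and the distances.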

Additional observations from a re-analysis of the deposited data

Results flagged for a closer look

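The contrast of ICI with tamoxifen in the share of a list's peaks that lie in members went in opposite directions in the genotypes: ICI minus tamoxifen was 13.3 percentage points in the wild type (45.9% against 32.6%) and -6.74 in the mutant (26.5% against 33.3%). The difference between the genotypes was not tested, as each group has 1 library. Each ligand list had 12151 to 12153 peaks in members, so the share runs inversely with list length.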

How the results depend on the processing

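The share of members on the X chromosome kept within its counting interval under all 10 alternatives run for it. The number of members was within 1.5 times 12151 under all alternatives except that without a wild-type ICI peak, at 19041. Of regions with a ligand peak, members were 18.6% with joins of at least 100 bp, 19.9% with joins across gaps of up to 200 bp and 18.4% with no vehicle peak within 1 kb. Not requiring wild-type ICI, wild-type tamoxifen, mutant ICI or mutant tamoxifen gave 29.96%, 21.4%, 19.7% and 21.4%, and ignoring the wild-type or mutant vehicle list 21.8% and 20.4%.

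The median spread was 30 bp with joins across gaps, and 19, 25, 24 and 25 bp when the 4 lists, in the order above, were not required; fewer midpoints give a smaller spread by construction. Members with another member within 10 kb were 40.99%, 31.8% and 31.1% without requiring wild-type ICI, wild-type tamoxifen and mutant tamoxifen, 31.5% and 30.9% ignoring the wild-type and mutant vehicle list, and 17.97% within 5 kb. Leaving out a list adds members, and by construction added members can only shorten the gaps of those already counted. Members with a vehicle peak within 10 kb were 16.3% with joins of at least 100 bp, 14.4% with joins across gaps, 12.0% with none within 1 kb, 25.8% and 20.9% ignoring the wild-type and mutant vehicle list, whose peaks then lie in members by construction, and 9.18% within 5 kb. Other causes of these shifts were not tested.

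A stricter peak threshold was not run, as the lists hold no scores, nor were results on gene starts and response elements. No paired analysis was possible because each group has 1 library. Unknown depth limits every absence of a peak.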

Other observations

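Runs of core members were looked at after the values were seen. When neighbouring members no more than 10 kb apart were joined, 8546 members stood alone and the others formed runs, of which 1297 had 2 members and 231 had 3. The longest run held 10 members in 38738 bp at chr11:117791956-117830693, with gaps of 823 to 7518 bp, only 3 other merged regions between them and no vehicle-held core region. The next, with 7 members in 35214 bp, lay at chr18:35974293-36009506 and had 6 other regions inside.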
